A study of Artemisia argyi with 3 samples.

Results

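The enzymes that form isopentenyl pyrophosphate (IPP) and dimethylallyl pyrophosphate (DMAPP) were followed through 4 unigenes of *Artemisia argyi*, out of 88,591 unigenes in the deposited expression table. These 4 were chosen by name, from the enzyme assignments of the study: HDS (Unigene5791_All, cloned as ArHDS), HDR (CL1787.Contig4_All, cloned as ArHDR, and CL12666.Contig6_All) and IPPI (Unigene11410_All). A unigene is a non-redundant sequence from the de novo assembly, named CL plus a cluster number where it is a contig of a cluster of similar sequences, and Unigene where it stands alone. The table pairs identifiers with no gene name, so neither the assignments nor the tissue labels could be checked against annotated genes. The study lists further unigenes for each of these enzymes, which were not analysed here. The levels below are therefore those of single unigenes and not of a whole enzyme step. Unigene5791_All and CL1787.Contig4_All are assigned in the text of the study, whereas CL12666.Contig6_All and Unigene11410_All are named only in its pathway drawing. The tissue pattern drawn there for CL12666.Contig6 does not follow the values of that identifier in the table, so its assignment to HDR is uncertain. Leaf, root and stem of mature plants were each sequenced as 1 library, made from tissue pooled over several plants of a herb garden. There was thus 1 value per unigene and tissue, with no replicate spread, and each difference below is a difference between single libraries, without a p-value.

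In plants, terpenoid precursors are made by the mevalonate pathway in the cytosol and by the methylerythritol phosphate (MEP) pathway in plastids. HDS and HDR catalyse the last steps of the MEP pathway, and both are iron-sulfur enzymes. HDS opens the cyclic diphosphate made by MCS to give hydroxymethylbutenyl diphosphate, and HDR reduces this to a mixture of IPP and DMAPP. The mevalonate pathway yields IPP alone, and IPPI converts IPP and DMAPP into each other. Terpenes of essential oils are built by joining units of this pair of precursors.

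Expression was read as FPKM, fragments per kilobase of unigene and per 1,000,000 mapped fragments, which is corrected for length and so allows levels to be set side by side between unigenes. The HDS unigene, Unigene5791_All, had 142 FPKM in leaf, 32.4 FPKM in root and 70.6 FPKM in stem. It was highest in leaf and lowest in root, and the leaf value was 58.0% of its sum over the 3 libraries. Counted down from the most abundant unigene of each library, it ranked 853rd in leaf, 3,366th in root and 1,867th in stem. In leaf it therefore stood within the top 0.963% of the table, and in root within the top 3.80%.

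The cloned HDR unigene, CL1787.Contig4_All, had 23.4 FPKM in leaf, 12.2 FPKM in root and 40.3 FPKM in stem. It was highest in stem, which held 53.1% of its sum, and lowest in root, as was HDS. Its rank was 5,423rd in leaf, 7,465th in root and 3,434th in stem. The other of the 2 HDR unigenes followed here, CL12666.Contig6_All, was listed at 0 in leaf, where 27,363 unigenes were listed at 0. It had 0.88 FPKM in root and 1.29 FPKM in stem. It passed 1 FPKM, the level at which the study counts a unigene as expressed, in stem alone. No ratio against the listed 0 is given for it.

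The IPPI unigene, Unigene11410_All, was the most abundant of the 4 in every library, with 399 FPKM in leaf, 635 FPKM in root and 451 FPKM in stem. It was highest in root and lowest in leaf, the reverse of the order of leaf and root in HDS. It ranked 213th in the leaf, 88th in the root and 143rd in the stem library, so that it stood within the top 0.240% of the table in leaf and the top 0.0993% in root. With the FPKM of each library scaled to a sum of 1,000,000, it reached 535 in the leaf, 928 in the root and 615 in the stem library. In each library the order of levels was IPPI, HDS, the cloned HDR and then CL12666.Contig6_All. Neighbours in this order cannot be set against a replicate spread, and in stem the closest pair, HDS and the cloned HDR, differed by 1.75-fold.

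**Figure D1:**
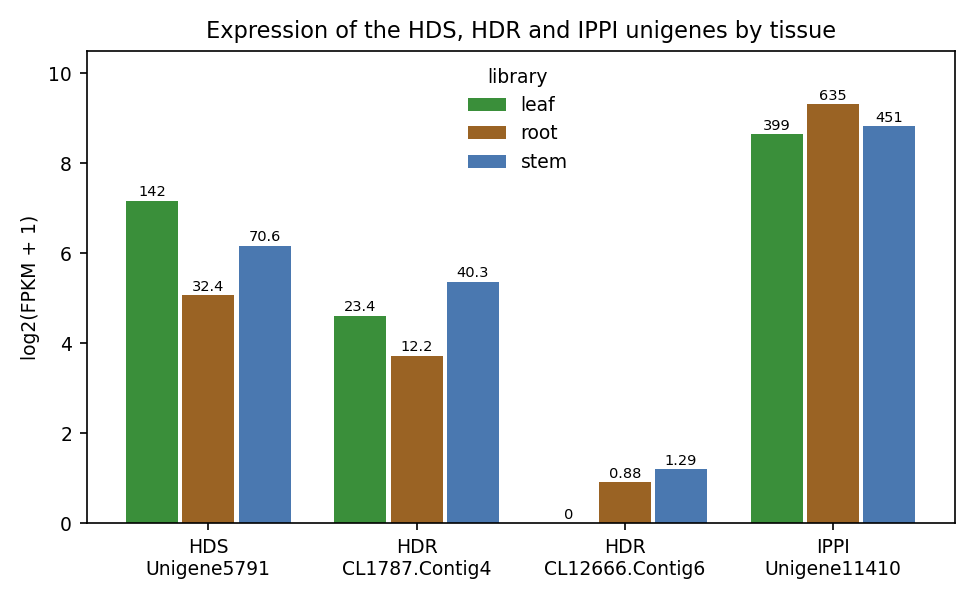
Expression of the 4 unigenes in the leaf, root and stem libraries as log2(FPKM + 1), with the FPKM printed over each bar; each bar is 1 library. HDS is highest in leaf (142 FPKM), the cloned HDR in stem (40.3 FPKM) and IPPI in root (635 FPKM), while CL12666.Contig6 does not exceed 1.29 FPKM.

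The comparison of leaf with the other tissues addresses which of these unigenes, rather than which enzyme steps, were higher in the organ used in medicine. Ratios were taken as log2 of FPKM + 1, and a difference of at least 2-fold, the threshold of the study's methods, was marked. Between leaf and root, HDS alone, of the 3 unigenes above 0 in both libraries, exceeded 2-fold on the leaf side, with a log2 ratio of 2.10. On the same scale 20.2% of all 88,591 unigenes were higher in leaf by this threshold. The log2 ratio of the cloned HDR was 0.88, which is within 2-fold. That of IPPI was -0.67, also within 2-fold, and 18.0% of all unigenes were lower in leaf by the threshold. Of the unigenes above 1 FPKM in both libraries, without a pseudocount, 32.9% were higher and 12.2% lower in leaf by the threshold. Among the 26,104 unigenes above 1 FPKM in both libraries, taken without a pseudocount, 8.85% had a larger ratio of leaf to root than HDS, 34.9% a larger one than the cloned HDR and 83.1% a larger one than IPPI.

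Between leaf and stem, HDS was again higher in leaf, at 142 FPKM against 70.6 FPKM in stem. Its log2 ratio was 0.998, just short of 2-fold, and without a pseudocount the quotient was 2.01. The cloned HDR was lower in leaf than in stem, with a log2 ratio of -0.76, and IPPI nearly level, with a log2 ratio of -0.18. So 0 of the 3 unigenes above 0 in both libraries passed the threshold in either direction, against 12.3% of all unigenes higher and 16.5% lower. Above 1 FPKM in both libraries and without a pseudocount, 19.1% of unigenes were higher and 16.1% lower in leaf, and HDS passed on the leaf side.

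Between root and stem, HDS had a log2 ratio of -1.10 and the cloned HDR one of -1.64, so both were at least 2-fold lower in root. IPPI was higher in root, with a log2 ratio of 0.49, and CL12666.Contig6_All had a log2 ratio of -0.28 from values near 1 FPKM. Of the 4 unigenes, 2 were at least 2-fold lower in root and 0 higher, beside 19.8% of all unigenes lower and 14.2% higher in root. Above 1 FPKM in both libraries and without a pseudocount, 30.3% of unigenes were lower and 8.34% higher in root. Of these 28,565 unigenes, 26.2% had a smaller ratio of root to stem than HDS and 11.8% a smaller one than the cloned HDR. In bulk tissue, fewer cells that express a gene and less of its RNA per cell cannot be told apart.

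The libraries themselves were shifted against each other on the FPKM scale. Over the unigenes above 1 FPKM in both libraries of a pair, the median log2 ratio was 0.50 for leaf over root, 0.12 for leaf over stem and -0.49 for root over stem. Relative to these medians, without a pseudocount, HDS was 1.63 higher in leaf than in root and 0.89 higher in leaf than in stem on the log2 scale. For IPPI the value relative to the median was -1.17 for leaf over root and 0.98 for root over stem. For the cloned HDR it was 0.43 for leaf over root, -0.91 for leaf over stem and -1.23 for root over stem. Division by median-ratio size factors, which centres the ratios of the unigenes above 0 in all libraries, moved log2 ratios by -0.64 for leaf over root and by 0.62 for root over stem before a pseudocount was added. With it, IPPI passed 2-fold, with log2 ratios of -1.31 for leaf over root and 1.11 for root over stem, while HDS for root over stem came to -0.50. The same scaling put 13.2% of all unigenes past 2-fold on the leaf side and 23.5% on the root side between leaf and root, and 19.4% on the root side and 12.3% on the stem side between root and stem. The ranking of the tissues did not differ between the deposited FPKM and 4 other scalings for HDS (leaf, stem, root), for the cloned HDR (stem, leaf, root) and for IPPI (root, stem, leaf). For CL12666.Contig6_All it was the same under 3 of the 5, and root came above stem under the others.

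**Figure D2:**
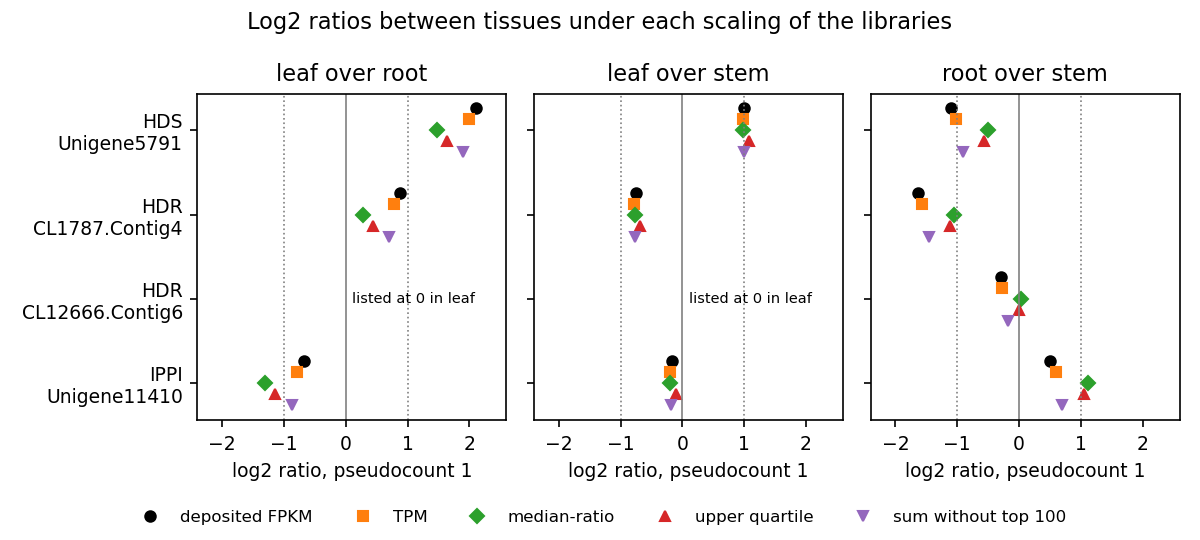
Log2 ratios of leaf over root, leaf over stem and root over stem for the 4 unigenes (pseudocount 1), with 1 marker per scaling of the libraries and dotted lines at 2-fold. HDS lies to the right of 0 and IPPI to the left for leaf over root under each of the 5 scalings, and median-ratio scaling takes IPPI to -1.31.

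A quotient of FPKM values within a library does not depend on how libraries are scaled against each other. HDS over the cloned HDR was 6.07 in the leaf, 2.65 in the root and 1.75 in the stem library. The HDS unigene thus exceeded the cloned HDR unigene in each library, and the quotient in leaf was 2.29 times that in root and 3.46 times that in stem. Between root and stem the quotient differed by 1.51-fold. With FPKM summed over the contigs of the HDR cluster and a pseudocount of 1, the log2 difference between HDS and HDR was 0.72 in root and 0.29 in stem, against 1.33 and 0.79 for the single contig. With the contigs of CL12666 added as well, an alternative chosen after seeing the data, the sum was 47.8 FPKM in leaf, 24.2 FPKM in root and 73.0 FPKM in stem. On the same scale, HDS minus this sum came to 1.55 for the leaf, 0.41 for the root and -0.048 for the stem library. In stem the HDS unigene was thus not above the summed contigs. Whether all of these contigs encode HDR is not known, so the sum gives no order of the enzymes.

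HDS over IPPI was 0.356 in the leaf, 0.0510 in the root and 0.157 in the stem library. Relative to the isomerase, the leaf level of HDS was therefore 6.99 times that in root and 2.27 times that in stem. The cloned HDR over IPPI was 0.0587 in the leaf, 0.0193 in the root and 0.0894 in the stem library. The value in leaf was 3.05 times that in root and 0.656 times that in stem. Root had the lowest quotient to IPPI for both of these MEP unigenes. The IPPI unigene was itself highest in root, and how many other unigenes have their lowest quotient to it there was not counted.

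**Figure D3:**
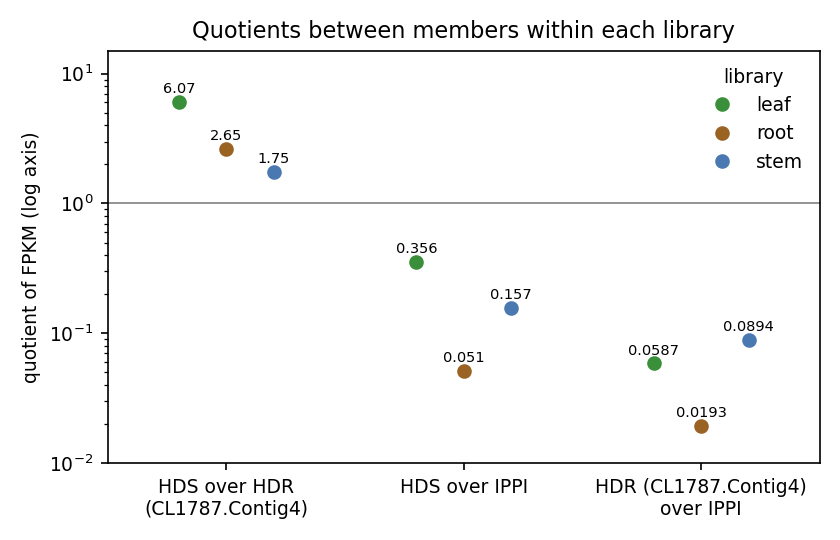
Quotients of FPKM between HDS, the cloned HDR and IPPI within each library, on a log axis; each point is 1 library and the grey line marks equal levels. HDS over HDR is highest in leaf (6.07), and both quotients to IPPI are lowest in root (0.0510 and 0.0193).

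HDS and IPPI are singletons, whereas both HDR unigenes are contigs of clusters, among which RSEM, the program the study used for FPKM, divides shared fragments. Cluster CL1787 had 4 contigs in the table. CL1787.Contig4_All, the cloned HDR, carried most of it, with 67.6% of the cluster sum in the leaf, 63.7% in the root and 70.0% in the stem library. Nearly all of the rest was CL1787.Contig3_All, with 11.2 FPKM in leaf, 6.47 FPKM in root and 16.8 FPKM in stem, in the same order of tissues as Contig4. CL1787.Contig1_All had 0.51 FPKM in root and was listed at 0 elsewhere, and CL1787.Contig2_All had 0.5 FPKM in stem and was listed at 0 elsewhere. The cluster sum was 34.6 FPKM in leaf, 19.2 FPKM in root and 57.6 FPKM in stem, with log2 ratios of 0.82 for leaf over root, -0.72 for leaf over stem and -1.53 for root over stem.

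Cluster CL12666 had 5 contigs in the table, and its summed level differed in pattern from that of the named contig. CL12666.Contig6_All made up 17.8% of the cluster sum in root and 8.33% in stem. The main contig was CL12666.Contig3_All, with 8.58 FPKM in leaf, 2.31 FPKM in root and 5.8 FPKM in stem, which was 65.3% of the cluster in leaf. CL12666.Contig4_All had 2.33 FPKM in leaf, 0.77 FPKM in root and 3.86 FPKM in stem. CL12666.Contig5_All was alike, with 1.5 FPKM in leaf, 0.7 FPKM in root and 3.96 FPKM in stem, and CL12666.Contig2_All stayed below 1 FPKM throughout, with at most 0.72 FPKM in leaf. Contig3 and Contig2 were thus highest in leaf, and the other contigs of this cluster in stem. Summed, the cluster reached 13.1 FPKM in leaf, 4.95 FPKM in root and 15.5 FPKM in stem, so that it was not near 0 in leaf, where the named contig is listed at 0. Its log2 ratio was 1.25 for leaf over root, -0.22 for leaf over stem and -1.47 for root over stem. The sums of both clusters had the order stem, leaf, root under each of the 5 scalings. What the other contigs of this cluster encode is not given in the values used here.

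**Figure D4:**
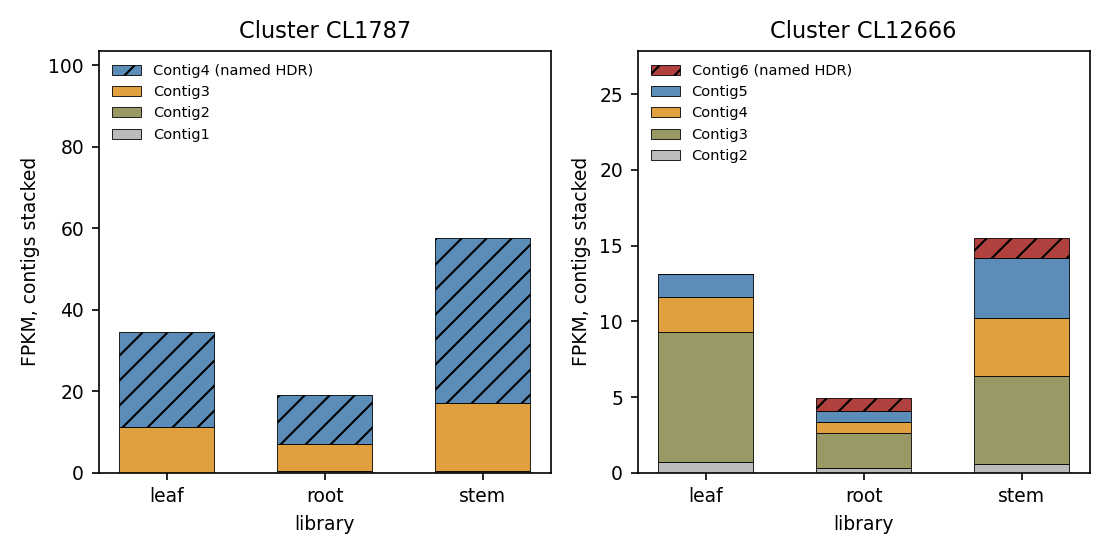
FPKM of the contigs of clusters CL1787 and CL12666 in each library, stacked from 0, with the contig named as HDR hatched; the vertical scales of the panels differ. CL1787.Contig4 makes up 63.7% to 70.0% of its cluster, whereas CL12666.Contig6 is listed at 0 in leaf and reaches 17.8% of its cluster in root.

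For the rest of the pathway, the other 5 unigenes that the study cloned were taken. Unigene11038_All (ArDXS, the entry enzyme of the MEP pathway) had 4.16 FPKM in leaf, 2.01 FPKM in root and 71.8 FPKM in stem, and CL1159.Contig3_All (ArDXR, which makes MEP) had 11.0 FPKM in leaf, 4.83 FPKM in root and 5.75 FPKM in stem. HDS over the DXS unigene was 34.2 in the leaf, 16.1 in the root and 0.984 in the stem library, so that this pair of unigenes stood level in stem and far apart in leaf and root. Other DXS unigenes were not analysed here. HDS over the DXR unigene varied less, at 12.9 in the leaf, 6.70 in the root and 12.3 in the stem library. The DXR unigene is a contig of a cluster whose sum is not given here. In the 4 MEP unigenes above 0 everywhere (DXS, DXR, HDS and the cloned HDR), FPKM was lowest in root. DXR came out lowest in stem under median-ratio and upper-quartile scaling. Root was also the low library in general, with median log2 ratios of 0.50 for leaf over root and -0.49 for root over stem. The share of all unigenes lowest in root was not counted, so the 4 are not set apart from other unigenes by this.

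The cytosolic pathway was represented by CL11002.Contig1_All (ArHMGR1), with 10.3 FPKM in leaf, 59.5 FPKM in root and 144 FPKM in stem, and by CL11002.Contig2_All (ArHMGR2), with 8.08 FPKM in leaf, 175 FPKM in root and 10.7 FPKM in stem. HMGR makes mevalonate, and both of these unigenes, like IPPI, were lowest in leaf. They are contigs of the same cluster, whose sum is not given here. Unigene7594_All (ArMVD, which forms IPP from mevalonate diphosphate) had 16.2 FPKM in leaf, 12.0 FPKM in root and 11.8 FPKM in stem. IPPI over the MVD unigene was 24.6 in the leaf, 52.9 in the root and 38.2 in the stem library, lowest in leaf and highest in root. Of the 5 cloned unigenes, 1 (ArDXR) passed 2-fold on the leaf side against root and 2 (both HMGR) on the root side, beside 20.2% and 18.0% of all unigenes, and with median-ratio scaling ArDXR no longer passed on the leaf side. Between leaf and stem 0 were higher and 2 lower in leaf, beside 12.3% and 16.5% of all unigenes. Between root and stem 1 was higher and 2 lower in root, beside 14.2% and 19.8%. The shares among unigenes above 1 FPKM in both libraries are those given above for each pair.

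Other unigenes with nearly the same levels were sought by the Euclidean distance in log2(FPKM + 1) over the 3 libraries. Nearest to HDS were CL10948.Contig1_All, with 133 FPKM in leaf, 37.0 FPKM in root and 74.7 FPKM in stem (distance 0.23), and CL6341.Contig5_All (distance 0.23). Within a distance of 0.5 there were 25 unigenes around HDS, 72 around the cloned HDR, 16 around IPPI and 1,697 around CL12666.Contig6_All. Such counts depend on abundance, since many unigenes lie near 0 FPKM and few at high levels. Nearest to the cloned HDR were Unigene794_All, with 22.7 FPKM in leaf, 12.4 FPKM in root and 38.8 FPKM in stem (distance 0.070), and CL2097.Contig2_All (distance 0.11). Nearest to IPPI were Unigene4800_All, with 391 FPKM in leaf, 696 FPKM in root and 437 FPKM in stem (distance 0.14), and CL5880.Contig8_All (distance 0.24). For CL12666.Contig6_All they were CL3486.Contig2_All (distance 0.0077) and CL1006.Contig4_All (distance 0.024), both also listed at 0 in leaf. The table names none of these.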

How the data were processed

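The filtered reads were assembled de novo by the authors (Trinity, then TGICL to merge similar contigs), Bowtie2 aligned the reads back to the assembly and RSEM gave FPKM. The sample labels name Trimmomatic. The values the authors deposited are FPKM to 2 decimals for 88,591 unigenes, with the columns assigned to leaf, root and stem by their initial. No genome was used, and read counts were not used here. For singletons between 0.2 and 0.5 FPKM in both libraries of a pair, ratios were binned at a width of 0.05 in log2. The fullest bin was centred at 1.07 for leaf over root, 1.04 for leaf over stem and 0.966 for root over stem. It held 33.7% to 39.9% of these singletons. The window itself limits these ratios, and the depth behind single values is unknown. Ranks, log2 ratios of FPKM + 1, quotients and cluster sums were computed with Python 3.11.15, numpy 2.4.6, pandas 2.3.3 and matplotlib 3.10.9, and the code was tested on simulated data. A pseudocount of 1 understates the change of low unigenes. The PoissonDis test needs counts and was not run. The alternatives were other pseudocounts, TPM, median-ratio, upper-quartile and trimmed-sum scaling (each library scaled to its sum without the 100 most abundant unigenes of every library) and cluster sums, of which the sum of both HDR clusters was chosen after seeing the data. The unigenes named are the 4 members, the 5 other cloned ones, the contigs of the 2 HDR clusters and the 2 nearest unigenes of each member. The members and lists were chosen with earlier results of these data known. Sequences were not analysed here.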

Additional observations from a re-analysis of the deposited data

How the results depend on the processing

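Of 64 alternative values for the 10 log2 ratios of the 4 unigenes, 51 kept their direction and their side of 2-fold. Smaller pseudocounts and TPM move the ratios of abundant unigenes little, so this count is no measure of robustness. A kept value could still differ in size: the cloned HDR for leaf over root went from 0.88 to 0.28 with median-ratio scaling. HDS for leaf over stem passed 2-fold without a pseudocount (1.01), with a pseudocount of 0.1 (1.01) and with upper-quartile scaling (1.08). HDS for root over stem came within 2-fold with median-ratio (-0.50), upper-quartile (-0.56) and trimmed-sum scaling (-0.91). IPPI passed 2-fold with median-ratio (-1.31) and upper-quartile scaling (-1.14) for leaf over root, and with the same scalings (1.11 and 1.05) for root over stem. CL12666.Contig6_All for root over stem changed sign with median-ratio (0.036) and upper-quartile scaling (0.00039) and passed 2-fold as its cluster sum (-1.47). The difference between HDS and the cloned HDR in root was 0.72 with the cluster sum. With both HDR clusters summed, an alternative chosen after seeing the data, it was 0.41 in root and changed sign in stem (-0.048). What lies behind each change was not tested.

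Counts over all unigenes also moved. Above 1 FPKM in both libraries and without a pseudocount, the 2-fold threshold left 8,599 unigenes higher and 3,179 lower in leaf than in root, 5,911 higher and 4,987 lower in leaf than in stem, and 2,383 higher and 8,659 lower in root than in stem. Median-ratio scaling gave 11,697 higher in leaf than in root and 10,905 lower in root than in stem. Of the 5 other cloned unigenes, 2 passed 2-fold on the leaf side against root without a pseudocount and 0 with median-ratio scaling, which also left 1 at least 2-fold lower in root than in stem. No paired analysis was possible because each tissue has 1 library. With 1 library per tissue and no read counts, neither biological variation nor counting error could be given for any value.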
